A study of Mus musculus with 6 samples.

Results

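Calcium leaves a cell through plasma membrane calcium pumps (PMCA, the Atp2b genes) and sodium-calcium exchangers (the Slc8a genes), is taken up into the endoplasmic reticulum by the SERCA pumps (Atp2a2 is the widely expressed one), and enters transporting epithelia through the channels Trpv5 and Trpv6. In intestine and kidney the active form of vitamin D is known to raise this machinery, with Trpv6 or Trpv5 as the entry step, calbindins as the cytosolic carrier and Atp2b1 as the exit pump. In neurons and glia the same pumps and exchangers clear calcium after signalling. These 10 genes, 4 Atp2b genes, 3 Slc8a genes, Atp2a2, Trpv5 and Trpv6, were followed here by name: a gene was taken where the array annotation gave a row exactly 1 gene symbol, and the brightest row over the 6 arrays stood for a gene with several. Of the 10, 9 had such a row, among 19938 genes in all. Atp2b4 had none and was not analysed here.

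The cultures held at 10 nM 1,25-dihydroxyvitamin D3 (1,25D), the hormonal form of the vitamin, gave 3 arrays, and vehicle-treated control cultures gave 3. Both groups were primary cultures of brain cells from OF1 mouse embryos at embryonic day 17, differentiated with fetal calf serum into a mixture of neurons and glia and then moved to serum-free medium without growth factors. The labels call the 3 arrays of a group biological replicates, give no time of exposure and do not say what a shared replicate number stands for, so a p-value here measures sample-to-sample spread, which may be technical. Differences are 1,25D minus control in log2 intensity, tested with limma over all 19938 genes with Benjamini-Hochberg adjustment and a threshold of 0.05, and differences within equal replicate numbers (pairs) are given beside them.

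The lower and upper quartiles of genes lay at log2 intensities of 6.69 to 6.86 and 9.24 to 9.31 on the 6 arrays. In control cultures the 8 astrocyte markers had means between 7.83 (S100b) and 12.72 (Aqp4), with Gfap at 11.61. Of the 9 neuronal markers, Map2 had 10.94 and the others lay between 6.19 (Slc17a6) and 8.64 (Stmn2). Array intensities of different genes depend on their probes and are not compared as RNA amounts, and these values carry no detection call. None of the 62 distinct cell type markers measured passed the test. The summed intensity of the 5 pericyte markers was 1.19, 1.23 and 1.21 times control in pairs 1, 2 and 3. It overlapped between the groups, at 950.3 to 1194 in 1,25D cultures and 786 to 968 in control cultures. That of the 5 fibroblast markers was 1.23, 1.20 and 1.07 times control. It did not overlap, at 1554 to 1688 in 1,25D cultures and 1297 to 1477 in control cultures. No marker was at 0, since these values have no zero. The sums of the neuronal and of the oligodendrocyte lineage markers were below control in each pair, at 0.81, 0.88 and 0.94 times and at 0.87, 0.90 and 0.94 times. Like the pericyte sum, they overlapped between the groups. The neuronal sum ran from 2676 to 4412 in 1,25D cultures and from 3303 to 4715 in control cultures. The oligodendrocyte lineage sum ran from 1812 to 2660 in 1,25D cultures and from 2092 to 2840.0 in control cultures. Within the neuronal list 8 of the 9 markers had a difference below 0, against 9375 of the 19938 genes. Map2 (-0.29) was among the 8, and Gad1 alone was above, at 0.15. Below 0 were also 7 of 8 astrocyte, 5 of 6 neural progenitor, 4 of 5 ependymal and 5 of 7 oligodendrocyte lineage markers. In the remaining lists, 2 of 6 choroid plexus, 2 of 5 endothelial, 2 of 5 pericyte, 2 of 5 fibroblast and 1 of 7 microglial markers were below 0. Rbfox3 was the lowest neuronal marker, at -0.34, and was lower in all 3 pairs, as were 11% of all genes. Its groups did not overlap, as in 828 of the 19938 genes in either direction. In total RNA of a mixed culture, more cells of a type and more RNA per cell cannot be told apart.

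Of the 9 measured genes, 0 passed the test in either direction (limma, without or with the pairs as a block), against 5 genes (0.0251%) over all genes without the block and 18 (0.0903%) with it. At an unadjusted p under 0.05, 1 of the 9 stood out, Atp2b1, and the same single gene did so with the block, where all genes gave 1.48% and 5.78%. The median difference of the 9 was 0.04, with 6 above 0 and 3 below, against a median of 0.01 over all genes. The plasma membrane pump Atp2b1 lay apart from the other 8, whose differences ran between -0.07 and 0.23.

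**Figure D1:**
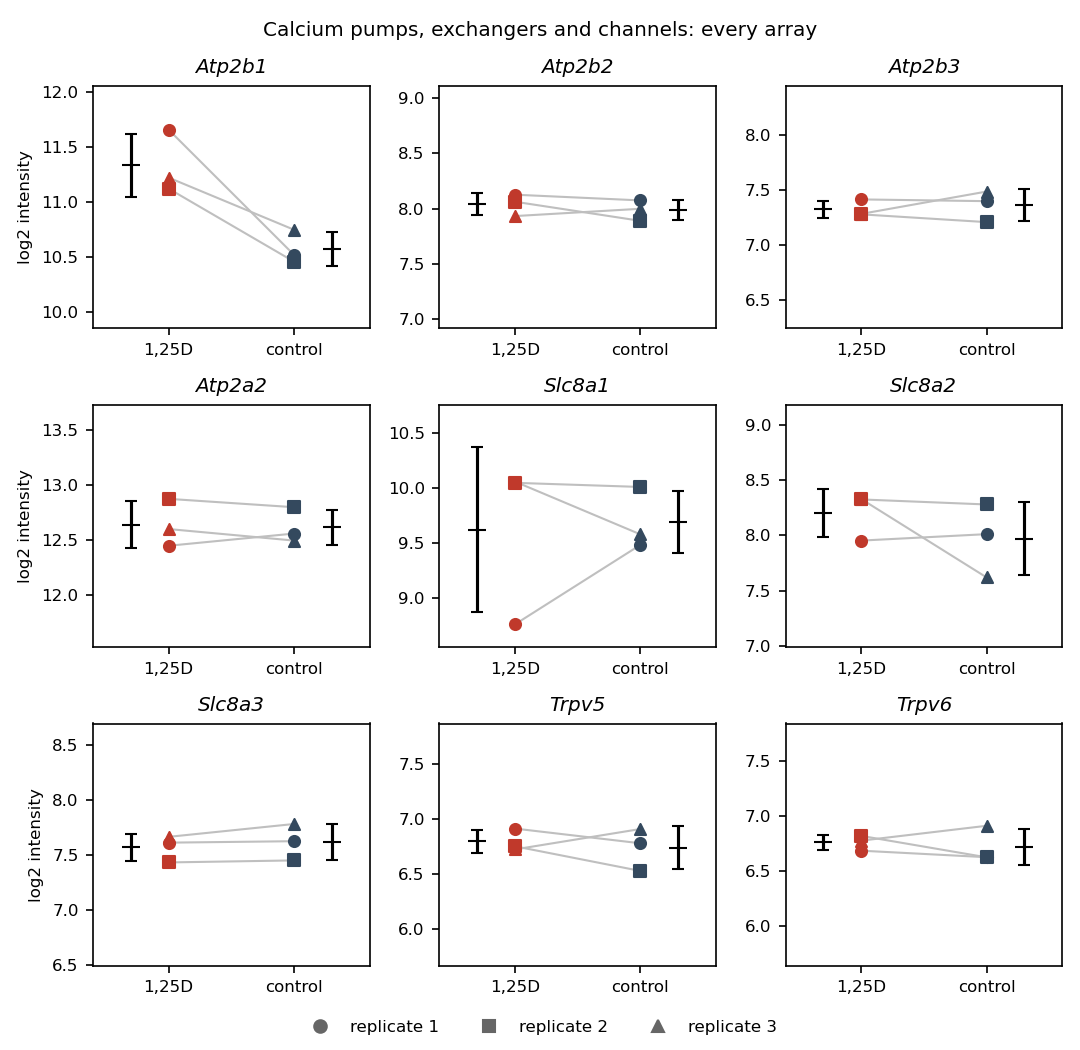
Log2 intensity of the 9 measured genes on every array, 1,25D on the left and control on the right of each panel. Symbols mark the replicate number, grey lines join equal numbers, and the bars beside the points give mean ± SD (n = 3); each panel spans the same 2.2 log2 units. Only the Atp2b1 panel has all 1,25D points above all control points.

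Atp2b1 encodes PMCA1, the plasma membrane calcium pump found in nearly all tissues and the exit pump of calcium-absorbing epithelia. Its linear intensity was 3224, 2224 and 2384 in 1,25D replicates 1, 2 and 3, against 1464, 1403 and 1716 in control replicates 1, 2 and 3. The lowest 1,25D array was above the highest control array, as it was for 2.63% of all genes. On the log2 scale the mean was 11.33 ± 0.28 in 1,25D cultures and 10.57 ± 0.15 in control cultures (SD, n = 3 each), a difference of 0.76 ± 0.16 (SE) or 1.69-fold, with a 95% interval of 1.31 to 2.19-fold. The difference did not pass over all genes (limma, unadjusted p = 0.0016, adjusted p = 0.90), and with the pairs as a block the adjusted p was 0.25. By unadjusted p it stood at place 33 of the 19938 genes without the block and at place 70 with it, and by the size of a positive difference at place 52. An exact two-sided permutation test over the 20 splits of the arrays gave p = 0.10, the smallest that 3 arrays against 3 can give.

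The pair differences of Atp2b1 were 1.14, 0.66 and 0.47 in pairs 1, 2 and 3, or 2.20, 1.59 and 1.39-fold. All 3 were above 0, which held for 14.8% of all genes. Replicate 1 of 1,25D had the brightest signal, and without that array the difference was 0.60. The pericyte and fibroblast marker sums given above were higher in the same 3 pairs, by less than Atp2b1, and their part in its difference was not tested. Their members did not move alike. Pdgfrb, a receptor of pericytes, had a difference of 0.48 and the collagen gene Col1a1 of 0.42, while Rgs5 and Dcn had 0.02 and 0.06. In each list 3 markers were above 0 and 2 below. Those below were Abcc9 (-0.05) and Anpep (-0.01) for pericytes and Col1a2 (-0.04) and Pdgfra (-0.04) for fibroblasts.

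The start of Atp2b1 is shown because it is the gene of the set whose groups separated, and that of Trpv6 because it is the textbook epithelial target of the hormone. Both are RefSeq promoter sequences (GRCm38.p6), read 5′ to 3′ on the gene's strand, with vitamin D receptor half-sites in capitals. Each ends before the first annotated base of the gene, which for Atp2b1 left out the last 12 bases before the start in the promoter table. The half-sites searched, on both strands, were the consensus AGGTCA and its variants, with GGTTCA first, AGTTCA second and GGGTCA last.
Atp2b1, chr10:98914392-98914629, plus strand: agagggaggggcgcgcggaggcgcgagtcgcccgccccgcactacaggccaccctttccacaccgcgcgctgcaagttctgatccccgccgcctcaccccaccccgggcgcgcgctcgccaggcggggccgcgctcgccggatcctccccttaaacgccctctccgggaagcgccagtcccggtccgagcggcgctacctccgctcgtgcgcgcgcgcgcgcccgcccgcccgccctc
Trpv6, chr6:41636406-41636655, minus strand: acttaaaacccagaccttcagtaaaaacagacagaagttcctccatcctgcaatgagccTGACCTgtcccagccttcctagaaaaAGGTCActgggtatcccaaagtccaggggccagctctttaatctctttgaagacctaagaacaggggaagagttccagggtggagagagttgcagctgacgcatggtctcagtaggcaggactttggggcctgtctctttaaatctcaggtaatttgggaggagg

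The 250 bases before either annotated Atp2b1 start held no such half-site and were 78.4% and 80.8% G or C, against a median of 52.4% over the 32851 windows of that length in the table. The Trpv6 window held AGGTCA on each strand, with first bases 191 and 165 bases before the start, and was 49.6% G or C. Of all windows, 14.0% held AGGTCA and 38.6% held at least 1 of the 4 half-sites. Of the 8 genes of the set with a window in the table, 3 held a half-site (Atp2b2, Slc8a2 and Trpv6). Counted by window, as the shares of all windows are, 4 of the 11 windows of these 8 genes held one. A pair of half-sites in the same orientation with 3 bases between them, the arrangement known as DR3, was in none of their 11 windows and in 13 (0.0396%) of all windows. These matches are letters within short windows and say nothing about binding, or about sites farther away.

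Neither of the other plasma membrane pumps measured passed the test (limma, adjusted p = 1.00 for both). Atp2b2, which encodes PMCA2, a fast pump of neurons and hair cells, had log2 intensities of 8.13, 8.06 and 7.93 in 1,25D replicates 1 to 3, against 8.07, 7.89 and 8.00 in control replicates 1 to 3. These values overlapped, and the 95% interval of the difference (0.05 ± 0.10, SE) ran from -0.18 to 0.29. The estimate of 0.76 for Atp2b1 lay outside it, and had an interval of its own from 0.39 to 1.13. Atp2b1 was singled out by these same values, so this is a description and no test between the genes. Atp2b3, which encodes PMCA3, a pump with a largely neuronal distribution, had 7.41, 7.28 and 7.28 in 1,25D replicates 1 to 3, against 7.40, 7.21 and 7.49 in control replicates 1 to 3. Its groups overlapped too, with a difference of -0.04 ± 0.11 (SE) and an interval from -0.29 to 0.21.

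The log2 ratio of Atp2b1 to Atp2b2 within each array was higher by 0.71 in 1,25D cultures than in control cultures, that to Atp2b3 by 0.80 and that to Atp2a2 by 0.74. The 3 ratios of 1,25D cultures lay above the 3 of control cultures for Atp2b2 and Atp2b3 and overlapped with them for Atp2a2. Atp2b1 was set in these ratios because its groups had separated, so they are a description and no test of a difference between genes.

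Atp2a2, the SERCA2 pump of the endoplasmic reticulum, gave a strong signal, far above the upper quartile of genes. Its linear intensity was 5588, 7507 and 6208 in 1,25D replicates 1 to 3, against 6035, 7122 and 5773 in control replicates 1 to 3. Replicate 2 was the highest array of both groups and the groups overlapped. The difference was 0.02 ± 0.14 (SE, 95% interval -0.30 to 0.35), and 0.02 with an interval from -0.17 to 0.22 with the pairs as a block.

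**Figure D2:**
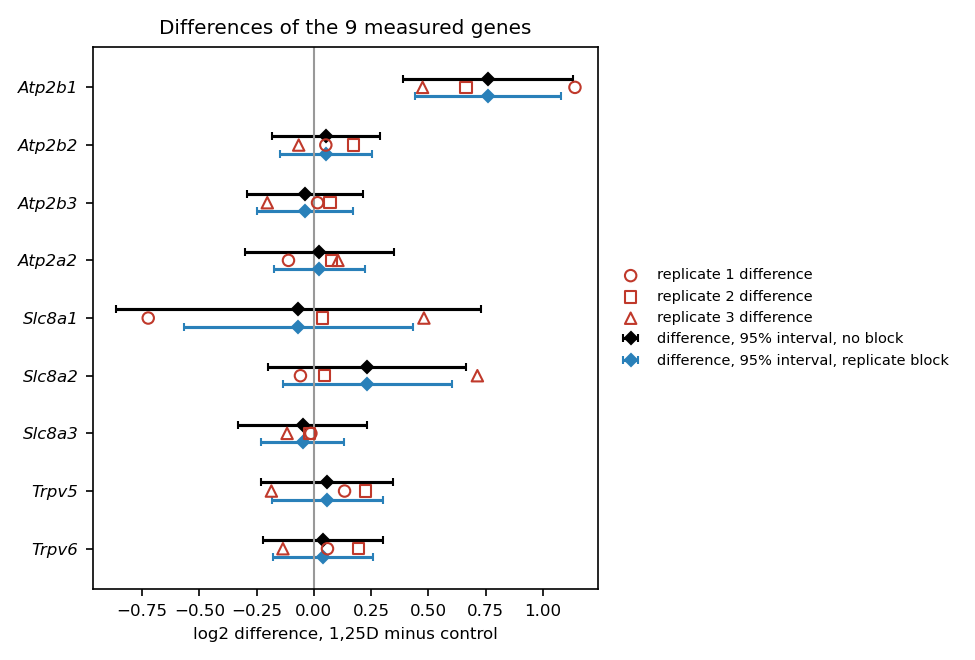
Log2 differences, 1,25D minus control, of the 9 measured genes, with 95% intervals from the fit without the block (black) and with the replicate block (blue), and the difference within each replicate number (open red symbols). Atp2b1 lies at 0.76 with all 3 pairs above 0, and both intervals of each of the other 8 genes include 0.

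Slc8a1, the sodium-calcium exchanger NCX1, which is prominent in heart and also made in brain, varied most among replicates of a group. Its log2 intensity was 8.76, 10.05 and 10.06 in 1,25D replicates 1 to 3, against 9.48, 10.01 and 9.58 in control replicates 1 to 3. The array of 1,25D replicate 1 stood below all others. The residual SD of 0.56 exceeded that of 98.7% of genes, and the difference of -0.07 ± 0.34 (SE) had a 95% interval from -0.86 to 0.73, so that differences nearly as large as that of Atp2b1 lay within it in both directions. The second row annotated to Slc8a1 gave 7.50, 8.78 and 9.23 in 1,25D replicates 1 to 3, against 8.11, 9.33 and 8.61 in control replicates 1 to 3. Replicate 1 of 1,25D was again the lowest, so the low value was present in both rows. Its cause was not tested.

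The pair differences of Slc8a1 were -0.72, 0.04 and 0.48 in pairs 1, 2 and 3. In the second row they were -0.61, -0.55 and 0.63, so the rows differed in pair 2. Without 1,25D replicate 1 the difference of the first row was 0.36, the reverse of the sign with all arrays. The summed ependymal markers stood at 0.71, 0.84 and 1.29 times control in pairs 1, 2 and 3, the summed choroid plexus markers at 0.77, 0.94 and 1.48 times and the summed astrocyte markers at 0.79, 1.00 and 1.05 times, each lowest in pair 1 and highest in pair 3, as Slc8a1 was. The sums of neural progenitor, neuronal and oligodendrocyte lineage markers had the same order, so it was shared by 6 of the 10 marker lists. The first 3 sums overlapped between the groups, at 2289 to 2699 in 1,25D cultures and 1775 to 3303 in control cultures for ependyma, 2486 to 3058 in 1,25D cultures and 2063 to 3394 in control cultures for choroid plexus, and 23575 to 34388 in 1,25D cultures and 22421 to 34234 in control cultures for astrocytes. Their part in the spread of Slc8a1 was not tested.

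Slc8a2, the exchanger NCX2 of brain, had log2 intensities of 7.95, 8.33 and 8.33 in 1,25D replicates 1 to 3, against 8.01, 8.28 and 7.62 in control replicates 1 to 3. The groups overlapped and the difference of 0.23 ± 0.19 (SE, 95% interval -0.20 to 0.67) came from pair 3, at 0.71, with -0.06 and 0.05 in pairs 1 and 2. Slc8a3, the exchanger NCX3 of brain and skeletal muscle, had 7.62, 7.44 and 7.67 in 1,25D replicates 1 to 3, against 7.63, 7.45 and 7.79 in control replicates 1 to 3. It was the single gene of the set that was lower in all 3 pairs, by differences of -0.01, -0.02 and -0.12, which held for 11% of all genes. Its overall difference was -0.05 ± 0.12 (SE), with an interval from -0.33 to 0.23. None of the 3 exchangers passed the test (limma, adjusted p = 1.00 for each without the block and 0.90 or more with it).

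The epithelial channels were dim. Trpv5, the entry channel of the distal kidney tubule, had linear intensities of 120.5, 108 and 106 in 1,25D replicates 1 to 3, against 109.8, 92.3 and 120.1 in control replicates 1 to 3. Trpv6, the entry channel of the intestine, had 103, 113 and 109.5 in 1,25D replicates 1 to 3, against 98.7, 98.6 and 120.3 in control replicates 1 to 3. Both genes had means close to the lower quartile of all genes, and in both the array with the highest or nearly highest signal was control replicate 3. The log2 differences were 0.06 ± 0.12 for Trpv5 and 0.04 ± 0.11 for Trpv6 (SE), with 95% intervals from -0.23 to 0.35 and from -0.22 to 0.30. Differences of dim genes are compressed by background signal, so these intervals bound the change in array signal and not that in RNA.

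On the known route of transcellular calcium transport, the carrier passed the test and the entry channels and exit pump did not. S100g, the cytosolic carrier calbindin-D9k, had log2 intensities of 8.68, 8.97 and 8.81 in 1,25D replicates 1 to 3, against 7.48, 7.10 and 7.18 in control replicates 1 to 3. The groups lay far apart, and S100g rose by 1.56 (limma, adjusted p = 0.022). Its pair differences were 1.20, 1.86 and 1.63, with pair 1 the smallest, whereas pair 1 was the largest for Atp2b1. Vdr, the receptor for 1,25D, had pair differences of 2.38, 1.58 and 1.32 and did not pass (limma, adjusted p = 0.38, and 0.052 with the block). These fell in the same order as those of Atp2b1. How many of all genes have that order was not counted, and a link between the 2 genes was not tested. Cyp24a1, the degrading enzyme listed as a further check of hormone action, lacked a row of its own in the annotation used and was not analysed here.

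Of 52 other calcium handling genes in 8 lists, 45 were measured. Of the 45, 1 passed as higher (S100g) and 0 as lower, the same without and with the block. The share of calls among the 19938 genes was 0.0251% in the unblocked fit and 0.0903% in the blocked fit. The lists, with S100g in them, were drawn up when earlier results of these data were known. The single call is therefore no independent result for calcium handling genes. The median difference of the 45 was 0.02. The other 7 genes of the list of transcellular partners did not pass, among them the second carrier Calb1 (-0.04), Kl, the klotho gene known to act on Trpv5 (0.04), and the calcium-sensing receptor Casr (0.00). Slc9a3r1, which encodes the scaffold NHERF1, had differences of 0.36, 0.38 and 0.42 in pairs 1 to 3 (adjusted p = 1.00, and 0.33 with the block) and was picked out after its values were seen. The annexin pair known to carry Trpv5 and Trpv6 to the membrane, S100a10 and Anxa2, had differences of -0.26 and -0.25.

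None of the 4 measured partners of the plasma membrane pumps passed. Bsg and Nptn, which encode the accessory subunits basigin and neuroplastin, had differences of 0.07 ± 0.10 and -0.09 ± 0.17 (SE), and the calmodulin genes Calm2 and Calm3, whose product activates the pumps, had 0.06 and -0.05. None of the 4 organelle pumps passed. Atp2a3, SERCA3, had the smallest p among them, with a difference of 0.14 ± 0.10 (SE). Of 3 measured SERCA regulators none passed, and Mrln, a micropeptide of muscle, had -0.09 ± 0.11 (SE).

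The 7 potassium-dependent and mitochondrial exchangers gave no call either. Slc24a5 had a difference of 0.16 ± 0.16 and Slc24a1 of 0.11 ± 0.12 (SE), and Slc24a4 ran at -0.97, -0.13 and 0.45 in pairs 1 to 3, the order also seen in Slc8a1. Among the 4 measured genes of the mitochondrial calcium uniporter, Smdt1, its small essential subunit, had a difference of 0.17 ± 0.09 (SE). Its 1,25D arrays all lay above its control arrays, as they did for 2.63% of all genes. The pore gene Mcu and the gatekeepers Micu2 and Micu3, picked out after their values were seen, had differences of -0.12, -0.16 and -0.44 and were lower in each pair, as were 11% of all genes. The smallest adjusted p of the 4 was 0.36, that of Micu3 with the block.

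In store-operated calcium entry, Stim1, the calcium sensor of the endoplasmic reticulum, had a difference of 0.19 ± 0.11 and Orai2, a channel subunit, of -0.14 ± 0.12 (SE), and 0 of 6 passed. Among the 9 measured release channels and lumenal buffers 0 passed. Casq2, a calcium buffer known from cardiac muscle, had -0.25 ± 0.18 and Ryr1, a ryanodine receptor, 0.07 ± 0.09 (SE).

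**Figure D3:**
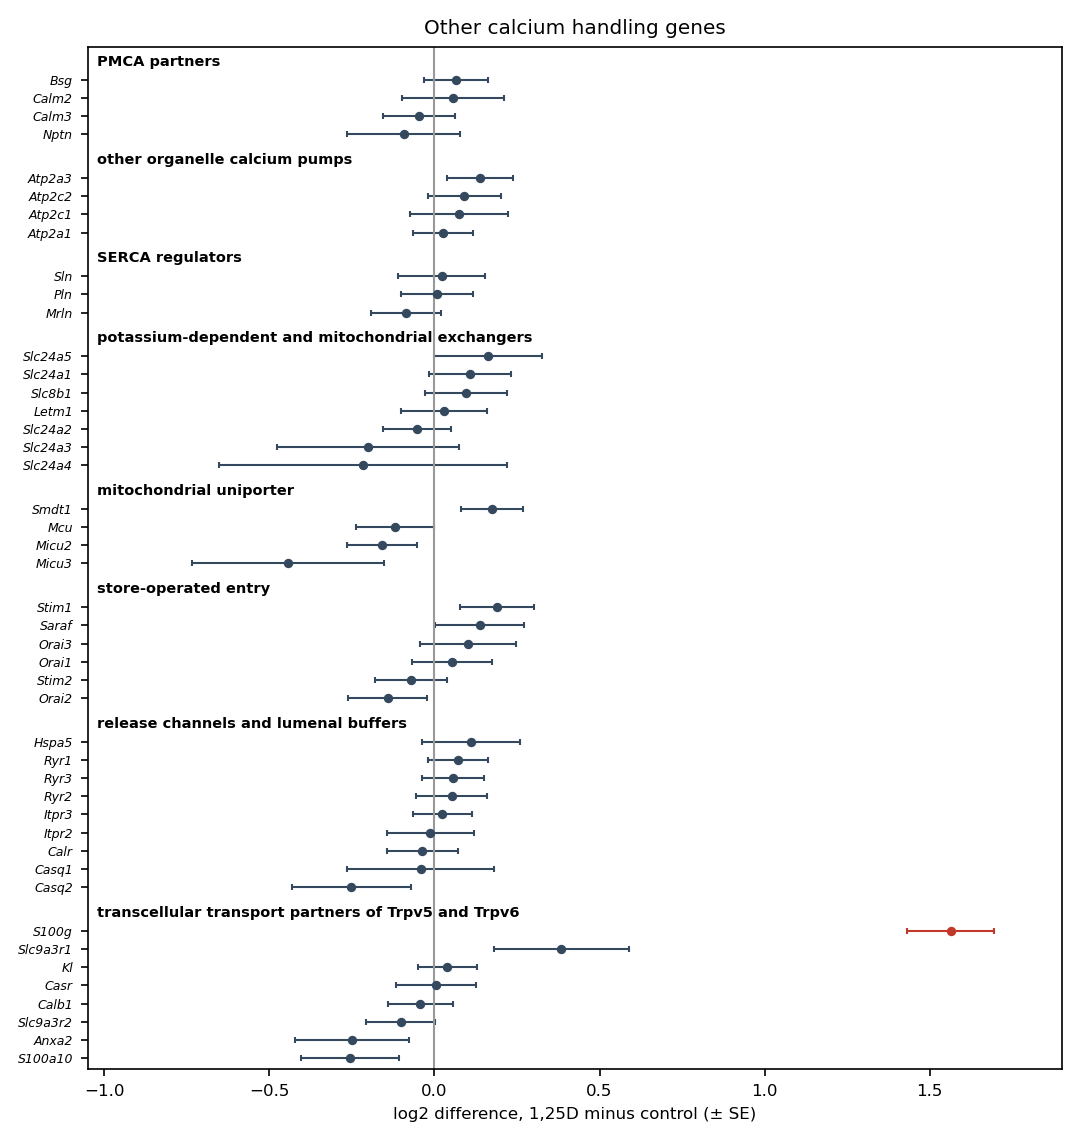
Log2 differences, 1,25D minus control, with SE, of the 45 other calcium handling genes in their 8 lists. S100g (red, at 1.56) passed the test, and the other 44 (dark), between -0.44 and 0.38, did not; symbols are those of the array annotation.

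The genes most like Atp2b1 over the 6 arrays were found by the root mean square difference between log2 intensities, each gene centred on its own mean. The nearest of the genes outside the set was Ttc39c, at 0.097, followed by Unc5b, a netrin receptor, at 0.14, Gfra1, the co-receptor for GDNF, at 0.14, Vmn1r58 at 0.15 and Grb14, an adaptor of receptor tyrosine kinases, at 0.16. The median over all genes was 0.43. Each of the 5 was higher in every 1,25D array than in any control array, which the measure itself favours, and none passed the test. Ttc39c had pair differences of 1.11, 0.76 and 0.77 and an adjusted p of 0.36, or 0.054 with the block (limma). Vmn1r58 was very dim, with a mean log2 intensity of 3.96 in control cultures. A gene with the same value on all 6 arrays would lie 0.42 from Atp2b1 by this measure. Within the set the gene nearest to Atp2b1 was Trpv5, at 0.37, little below that and little below the median of all genes. The closest 2 members of the set were Atp2b3 and Trpv5, 0.059 apart. Both varied little, with root mean square deviations from their own means of 0.095 and 0.13. Genes that vary little lie close together by this measure whatever their pattern.

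**Figure D4:**
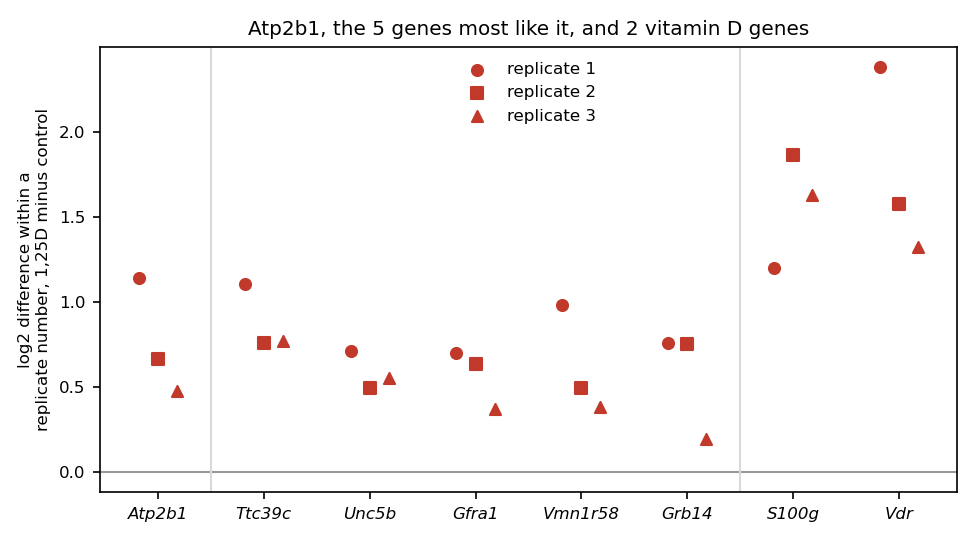
Log2 differences within replicate numbers 1, 2 and 3, 1,25D minus control, for Atp2b1 (left), the 5 genes outside the set most like it over the 6 arrays (centre) and the vitamin D genes S100g and Vdr (right). Pair 1 is the largest for Atp2b1 (1.14) and Vdr (2.38) and the smallest for S100g (1.20).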

How the data were processed

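The 6 arrays measured biotin-labelled cDNA from total RNA. Per the submitters' processing notes, the authors made the deposited intensity values with Affymetrix Expression Console and RMA. Versions, filters and the genome build: not given in the sources used here. They are on a linear scale (8.05 to 22019), so log2 was taken. Of 35556 rows, 21789 had 1 gene symbol in GEO's platform annotation, 1621 several, and 12146 are unnamed here, which left 19938 genes. For 1094 genes both arrays of replicate 1 held the same value, none of them among the 9 genes studied. The markers Stmn2, Kcnj8, Cdh5 and Eomes were among them. Such genes were kept in the fits, unless said otherwise, in the shares of all genes, in the marker sums and in the correlations between arrays given below. Without a difference in pair 1, they cannot count as higher or lower in every pair, which lowers those shares of all genes.

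Differences were fitted with limma 3.58.1 in R 4.3.3 (lmFit, eBayes), without the replicate number, and tested on simulated data. The blocked fit was run as well. Deviations from the group means correlated across genes at 0.51, 0.65 and 0.46 for equal replicate numbers 1, 2 and 3. For unequal numbers the correlations lay between -0.51 and -0.01. Deviations within a group of 3 sum to 0, so these correlations depend on one another. Equal numbers were taken as pairs, which rests on the data, since the labels are silent. For arrays the number of replicates limits the precision. The genes and lists were chosen with earlier results of these data known. Named beside the 10 genes were, for each list, the called genes or else the smallest 1 or 2 p-values, the 5 genes most like Atp2b1, and other list members given as values, which were picked after these were seen. List symbols were updated through RefSeq.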

Additional observations from a re-analysis of the deposited data

How the results depend on the processing

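None of the 9 genes was called in any of the settings tried, which were the replicate block, quantile normalisation, median centring, array weights, a mean-variance trend, an offset of 50, the mean over rows, omission of the lowest 25% of genes, of each array and of each pair, and, chosen after seeing the data, both normalisations with the block, omission of the genes with identical replicate 1 values, and a fit over every row with 1 symbol. Atp2b1 stayed above 0 in all 23, between 0.57 (without replicate 1, with the block) and 0.90 (without replicate 3, with the block), with adjusted p-values from 0.073 to 1.00. Trpv5 and Trpv6 fell within the lowest 25% and have no value in that setting. With the replicate block the difference of Atp2b1 was 0.76 with an adjusted p of 0.25, and with array weights and the block 0.81 with 0.091. The block changed no call of the 9 genes. Atp2b3 turned to 0.0036 with array weights and the block. With 1 array left out, the differences ranged from 0.0039 to 0.11 for Atp2b2, -0.12 to 0.022 for Atp2b3, -0.29 to 0.36 for Slc8a1, 0.057 to 0.39 for Slc8a2, -0.13 to 0.032 for Slc8a3, -0.093 to 0.12 for Atp2a2, -0.048 to 0.14 for Trpv5 and -0.0082 to 0.14 for Trpv6. With a pair left out and the block kept, signs turned for Slc8a1 without replicate 1 (0.26), for Atp2b2 (-0.0072), Atp2a2 (-0.0030), Trpv5 (-0.026) and Trpv6 (-0.038) without replicate 2, and for Atp2b3 (0.043), Slc8a2 (-0.0065) and Atp2a2 (-0.018) without replicate 3. The count over all genes was 5 as reported, 18 with the replicate block, 40 with array weights and the block, 3 with the offset, 0 to 2 with an array left out and 3 to 45 with a pair left out; with the block it was 25 after quantile normalisation, 16 after median centring and 22 without the genes of identical values. The causes were not tested. With 3 arrays a group, small changes of these genes could not be told from none.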
